A study of Mus musculus with 42 samples.

Results

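SIRT1 is a deacetylase that uses NAD+ to remove acetyl groups from histones and other proteins. In the mouse, the embryonic genome is switched on in 2 waves, a minor one that starts late in the zygote and a major one in the late 2-cell embryo, while RNA stored by the oocyte is cleared. The study asked whether histone deacetylation fed by NAD+ sets the timing of the minor wave, and knocked down Sirt1 as one arm of that question. The comparison described here is Sirt1 knockdown against control in late 2-cell embryos. By the labels it covers 4 of the 42 samples of the series, 2 control and 2 knockdown, collected 48 h after the ovulation-inducing hormone hCG.

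The embryos came from ICR mice, an outbred strain, and the labels give the controls as wild type and untreated. According to the study's methods, the knockdown embryos were injected as zygotes with a Sirt1 siRNA, an antibody against SIRT1 and mRNA for Trim21, a ubiquitin ligase that sends antibody-bound protein for degradation, and the injected controls received a scrambled siRNA with Trim21 mRNA. Each library was made from several pooled embryos. The siRNA acts on the RNA measured here, whereas the antibody acts on the protein, which was not measured. Whether the control column held injected or untreated embryos cannot be told apart from the sources used here.

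The deposited table holds 1 FPKM column for each group (fragments scaled to exon length and library size), and 15737 genes with distinct symbols on chromosomes 1 to 11 were read from it. FPKM multiplied by exon length falls on whole reads, and this gave the number and size of the libraries in each column. The control column was the sum of 2 libraries of 6523488 and 4164896 reads, called control A and control B below by size, and was divided by 2. Its columns carry no replicate numbers.

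The column headers and the study's own list of Sirt1 knockdown genes disagree. Among the 821 listed genes found in the rows, 773 (94.2%) changed in the listed direction in the column headed 4-cell-FK866-NMN, against 442 (53.8%) in the column headed late-2-cell-Sirt1. The column headed late-2-cell-FK866 came second with 703 (85.6%), then early-2-cell with 684 (83.3%) and 4-cell-FK866 with 641 (78.1%). Every column was set against the same control, so these shares are not independent of each other. The column headed 4-cell-FK866-NMN was therefore taken as the Sirt1 knockdown. It showed 1 library, of 6907426 reads, so the knockdown has no replicate here and no test is given. The choice rests on the study's own fold changes, so the size of the differences below is a description of that library.

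A second list of the study, with levels per group, bore on the headers directly. All 84 levels above 0 that it gives for 4-cell embryos treated with FK866 equalled the column headed late-2-cell-Sirt1 within a relative tolerance of 0.01. All 47 for 4-cell control embryos equalled the column headed late-2-cell-TSA, and all 80 for 4-cell embryos given FK866 with NMN equalled the column headed 4-cell-con. For late 2-cell controls 73 of 74 equalled the column headed late-2-cell-con.

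Stage genes bore on the same conflict without using those lists. Zscan4d, a gene of the major wave, was at 125 FPKM per library in the control, at 69.6 in the knockdown column and at 4.01 in the column headed late-2-cell-Sirt1. Zfp352, another 2-cell gene, was at 65.1, 115 and 0.022 in the same order. Btg4, which drives removal of maternal mRNA, was at 1461, 706 and 26.2. Both libraries of the column headed late-2-cell-Sirt1 were closer to the libraries headed 4-cell-con and late-2-cell-TSA (Pearson r across genes 0.85 to 0.909 on log2(FPKM + 1)) than to the controls (0.719 to 0.73). These 3 genes were thus lower in the column that bears the Sirt1 header than in the control and in the column used here. Genes are not independent replicates, and these r values describe the libraries only.

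**Figure D1:**
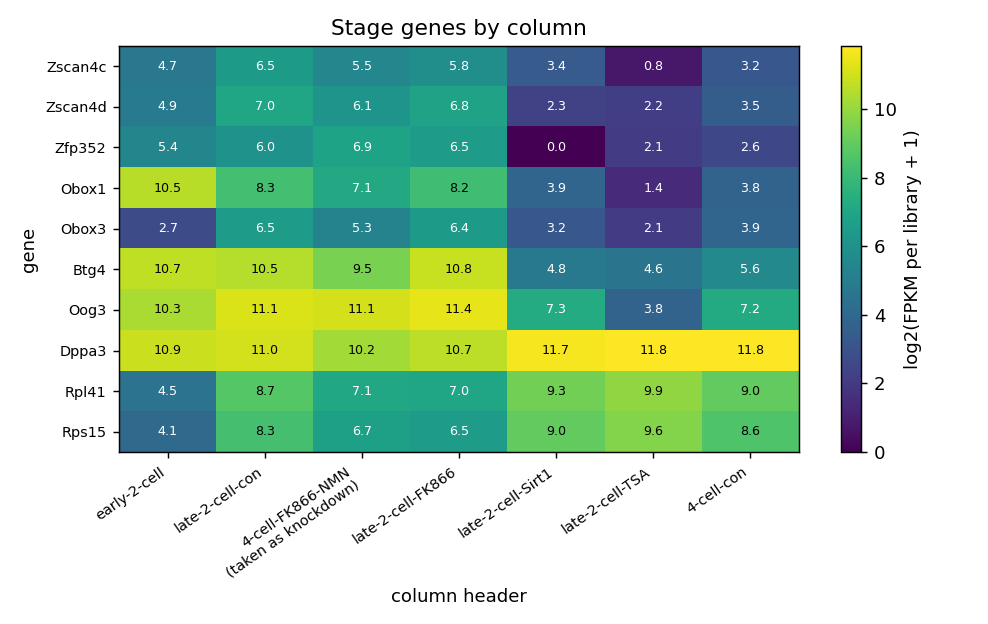
Level of 10 stage genes (rows) in 7 columns of the table, by their headers, as log2(FPKM per library + 1), with the value printed in each cell. The column taken as Sirt1 knockdown still holds the 2-cell genes of the late 2-cell control. In it Zfp352 is higher than in that control, and Zscan4c, Zscan4d, Obox1, Obox3 and Btg4 are lower. The column headed late-2-cell-Sirt1 has low Zscan4d, Zfp352 and Btg4, as do the columns headed late-2-cell-TSA and 4-cell-con.

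The targeted gene was low in the knockdown library. Sirt1 (chr10:63319005-63381704, minus strand, GRCm38) was at 86.6 FPKM in control A (3011 reads), at 66.2 in control B (1470 reads) and at 11.3 in the knockdown (415 reads). The exact Poisson 95% intervals, which cover counting error only, were 83.5 to 89.7, 62.9 to 69.7 and 10.2 to 12.4. The knockdown library was thus 6.78-fold under the control mean (log2 fold change -2.66 with 1 FPKM added to both, the scale of all log2 fold changes below). Of the genes with 50 FPKM or more in the control, 897 had reads that could be told apart by library. Among these 897, 10 had a log2 fold change this low or lower, Sirt1 among them.

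Sirt1 RNA was also low before the major wave. The 2 early 2-cell libraries were at 13.5 and 6.18 FPKM, so the control mean was 7.76-fold above the early 2-cell mean, and the knockdown lay between both early libraries. In late 2-cell embryos treated with FK866, which blocks NAD+ synthesis, the 2 libraries were at 79.3 and 55.1 FPKM, on either side of control B. A further single library, headed 4-cell-FK866, was at 7.61 FPKM, below the knockdown. A low Sirt1 level was therefore shared by early 2-cell libraries and by this further library, and the part of embryo stage in the low level was not tested. In pooled embryos, fewer cells of a kind and less RNA per cell cannot be told apart.

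**Figure D2:**
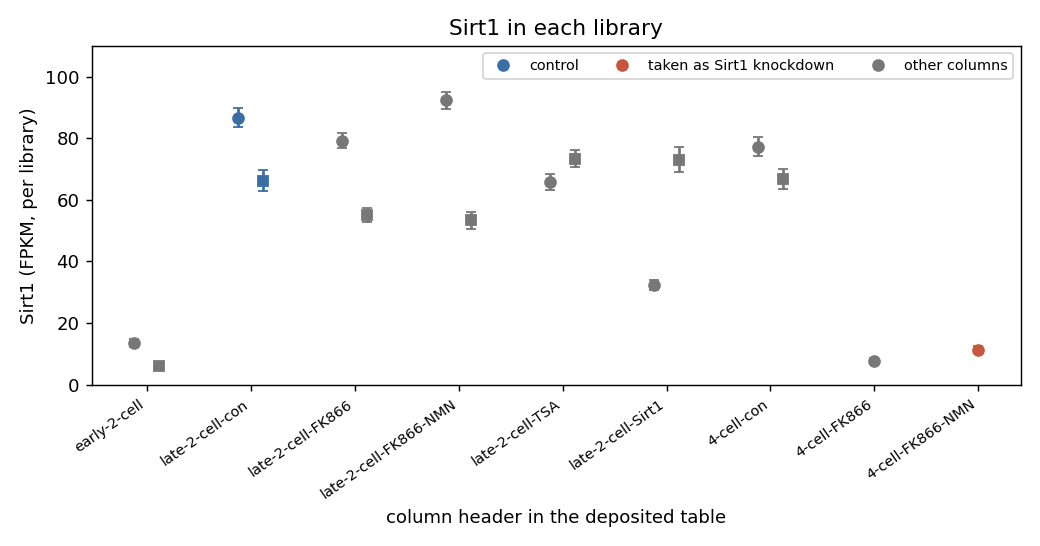
Sirt1 FPKM (y axis) in each library, by the header of its column (x axis). Circles are the larger and squares the smaller library, and bars are exact Poisson 95% intervals of the read count; the knockdown library at 11.3 FPKM lies under both control libraries at 86.6 and 66.2 and beside the early 2-cell libraries.

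The other sirtuins in the rows were Sirt2, Sirt3, Sirt4 and Sirt6. Sirt4, a mitochondrial member, was at 22.5 and 13.8 FPKM in the controls and at 26.3 in the knockdown. Sirt6, a chromatin deacetylase, was at 0.055, 11.9 and 6.39, and Sirt3, the main mitochondrial deacetylase, was at 0.744, 3.74 and 1.62, both between the controls. Sirt2, which is mostly cytoplasmic, was at 3.71 and 0.477 against 6.21, the one above 2-fold over the control mean (log2 fold change 1.22) but under 2-fold from control A. Trim21, the RNA injected with the antibody, was listed at 0 in the controls and in the knockdown. Its row thus showed no injected mRNA in the library taken as the knockdown or in the controls. The reason was not tested.

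The 2 control libraries differed from each other almost as much as the knockdown differed from either. Of 8622 genes with 1 FPKM or more per library in the control or the knockdown, 44.5% lay more than 2-fold from the control mean in the knockdown: 1411 (16.4%) above it and 2430 (28.2%) below. Reads of all 3 libraries could be told apart for 8253 of these genes. Control A and control B differed more than 2-fold at 3311 (40.1%) of them, the knockdown and control A at 44.7%, and the knockdown and control B at 43.8%. Pearson r across genes was 0.833 between the controls, 0.819 between the knockdown and control A and 0.825 between the knockdown and control B. The excess of lower genes also depended on the reference: higher genes were 36.7% of those past 2-fold against the mean, 51.7% against control A and 42.8% against control B. Centred on the median of all counted genes (-0.21), 1754 genes were higher and 1902 lower. Genes more than 2-fold beyond each control library numbered 933 higher (11.3%) and 865 lower (10.5%), and the comparison of a single library with each control is used for the genes below.

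At higher levels the controls lay closer together. With 50 FPKM or more in the higher of the control mean and the knockdown, control A and control B differed more than 2-fold at 10.3% of 1034 genes, the knockdown and control A at 24.6% and the knockdown and control B at 22.5%. In this range 32 genes (3.09%) were more than 2-fold above both controls and 87 (8.41%) more than 2-fold below both. This range was chosen after the data were seen. Of the 1034 genes, 897 reached 50 FPKM in the control mean, and the others entered through the knockdown alone, which favours genes higher there. Averaging the controls also damps a high value in a single control library. The shares in this range therefore depend partly on how it was set. The median over these genes was -0.19 against control A and -0.16 against control B, so well-expressed genes as a whole sat somewhat lower in the knockdown.

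**Figure D3:**
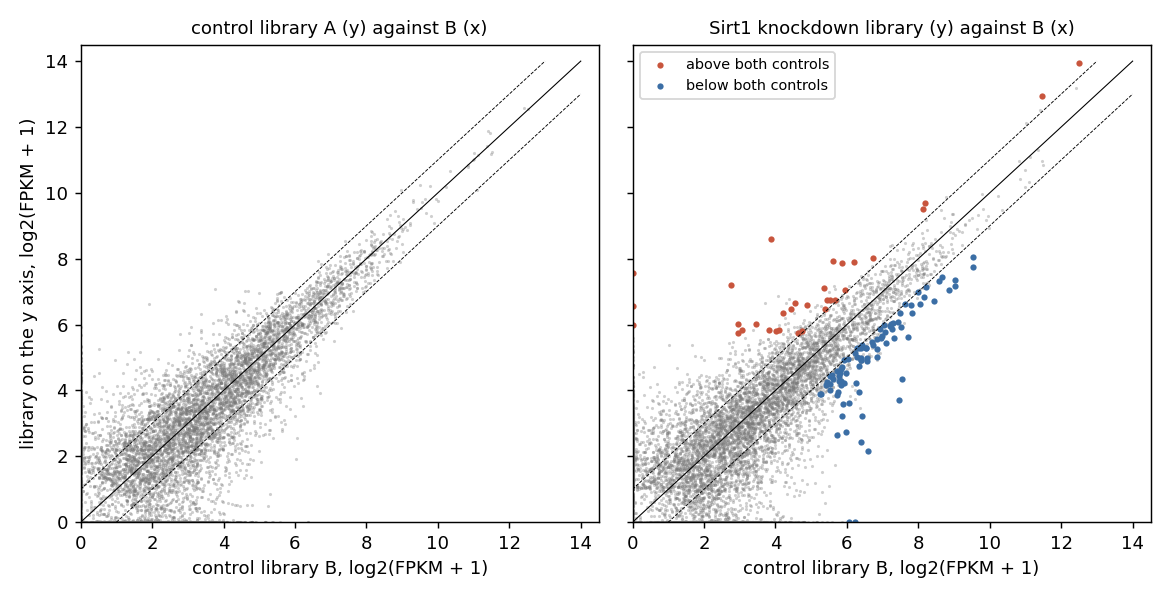
Each grey point is 1 of 8253 genes, as log2(FPKM + 1). Left, control A (y) against control B (x); right, the knockdown library (y) against control B (x), with the 32 genes above both controls (orange) and the 87 below both (blue) among those with 50 FPKM or more; dashed lines mark a 2-fold difference in (FPKM + 1).

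Among the 87 lower genes, Alppl2, an alkaline phosphatase of early embryos and naive pluripotent cells, was at 298 and 175 FPKM in control A and control B and at 12.0 in the knockdown (log2 fold change -4.19). Folr1, a folate receptor, was at 51.5 and 61.5 against 5.74. Cst7, a cysteine protease inhibitor, was at 57.7 and 51.6 against 5.29. All 3 were under 5 FPKM in the early 2-cell column (4.93, 0.427 and 0) and between the control and the knockdown in the FK866 column (85.0, 26.4 and 11.1), which uses the same controls.

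Naxe, the epimerase that repairs damaged NADH and NADPH, was at 39.7 and 94.7 FPKM against 3.51 (log2 fold change -3.92). Aprt, which recycles adenine, was at 123 and 46.4 against 20.7. Their controls differed more than 2-fold from each other, yet the knockdown lay more than 2-fold below the lower one in both cases. Mgst3, a microsomal glutathione transferase, was at 185 and 171 against 67.2.

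Ube2s, the ubiquitin-conjugating enzyme of the anaphase-promoting complex, was at 159 and 113 FPKM against 31.5. Orc6, of the origin recognition complex, was at 262 and 263 against 98.6. Cdca8, of the chromosomal passenger complex, was at 145 and 132 against 53.7, and Asf1b, a histone chaperone, was at 67.3 and 93.6 against 28.8. For Orc6 and Cdca8 the controls lay close together and the knockdown lay more than 2-fold below both. Low levels of Ube2s, Orc6 and Cdca8 were not particular to the knockdown. The FK866 column held them at 63.2, 119 and 65.4 FPKM and the early 2-cell column at 32.4, 122 and 56.4. Asf1b was at 112 in the FK866 column, above both controls. Pcgf1, a Polycomb subunit, was at 88.0 and 60.0 against 29.3.

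The 87 further held Rbm38, an RNA-binding protein, at 474 and 516 FPKM against 164, and Med27, a Mediator subunit, at 233 and 198 against 97.4. Nxt1, of the mRNA export receptor, was at 193 and 180 against 81.3. Eif3g, a subunit of initiation factor 3, was at 80.1 and 55.8 against 17.1. Rps15 and Rpl41, of the small and large ribosomal subunits, were at 303 and 344 against 104 and at 367 and 459 against 133. In the FK866 column, Eif3g was at 7.74 FPKM, Rps15 at 90.6 and Rpl41 at 128, under the knockdown. Rbm38 was there at 185, Med27 at 170 and Nxt1 at 120, above the knockdown. These genes were picked from the 87 after their values were seen, and no theme among them was tested.

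At 50 FPKM or more, 32 genes were above both controls, 16 of them protein-coding and 12 pseudogenes by the annotation. Of all 1034 genes of this level, 770 were protein-coding and 210 pseudogenes. Zfp982, a zinc finger gene, had no read in either control and 953 reads in the knockdown (92.7 FPKM), which is at least 234-fold higher when 3 reads are set as the floor of each control library. Bola1, a mitochondrial protein of iron-sulphur cluster supply, likewise had no control read and 465 in the knockdown, at least 114-fold higher. Neither was particular to the knockdown, since the FK866 column held 19.5 and 24.3 FPKM of them. Ppp3r1, the regulatory subunit of calcineurin, was at 7.22 and 6.69 FPKM in the controls against 52.4, and Il7, a cytokine, was at 10.6 and 16.2 against 56.7.

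Oog2, an oocyte gene of the leucine-rich repeat family, was at 32.2 and 17.4 FPKM against 81.1. Rras2, a small GTPase, was at 27.6 and 42.8 against 107, and Tpd52 was at 83.8 and 105 against 261. Psme4, the proteasome activator that recognises acetylated histones, was at 53.8 and 60.4 against 131. Oas1c, of the oligoadenylate synthetase family, was at 39.8 and 49.8 against 105. The FK866 column, which uses the same controls, also held these genes above both controls. Oog2 was there at 82.7 FPKM, Rras2 at 88.5, Tpd52 at 211, Psme4 at 91.4 and Oas1c at 83.0. Likewise Ppp3r1 was at 27.0 and Il7 at 39.8. Of the 32 genes, 17 (53.1%) were early 2-cell-high, meaning more than 2-fold higher in the early 2-cell column than in the column headed late-2-cell-TSA, which holds the levels that the study lists for 4-cell controls, against 35% of all 1034 genes of this level. Of the 87 lower genes, 28 (32.2%) were early 2-cell-high and 42 (48.3%) were 4-cell-high, against 46.4% of all. Some of the 32 higher genes, such as Oog2 and Rras2, reached 50 FPKM in the knockdown but not in the control mean. The share of 53.1% thus depends partly on the selection, and none of these shares was tested.

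**Figure D4:**
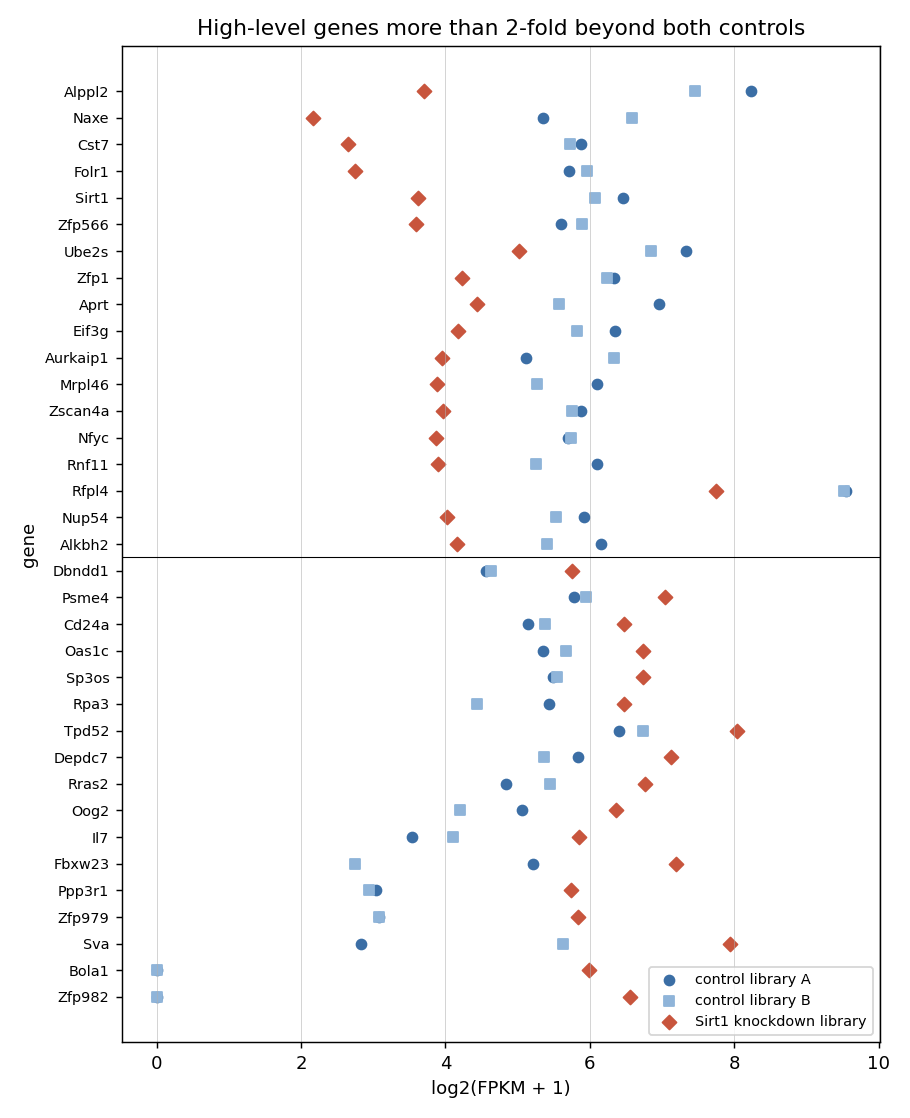
Genes with 50 FPKM or more that lay more than 2-fold beyond both controls, leaving out predicted genes, RIKEN clones, small RNAs and pseudogenes named as such: the 18 with the lowest log2 fold change (above the line) and those above both controls (below the line). The x axis is log2(FPKM + 1) in control A (circle), control B (square) and the knockdown (diamond).

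The most abundant rows that were higher in the knockdown are copies of mitochondrial DNA. A stretch of chromosome 1 (chr1:24611535-24616197, GRCm38) holds 7 rows that the annotation calls unprocessed pseudogenes, and 98.6% of its 31-base words also stand in the mitochondrial genome, against 0% for a stretch 1 Mb further. They took 3.03% of the reads of a control library on average and 7.83% of the knockdown library, and from 1.67 to 4.91% in the other columns. Gm29216 was at 6014 and 5837 FPKM in the controls and at 15879 in the knockdown, and Gm28437 at 3625 and 2794 against 7800. These 2 rows were not particular to the knockdown, since the FK866 column held 16887 and 7495 FPKM of them. Gm10925 and Gm28661, whose reads could not be separated by library, were at 16290.5 and 12326 in the control mean. They were at 41570 and 39026 in the knockdown and at 14962 and 10440 in the FK866 column. Gm28438, in the same stretch, was at 6139 and 5439 against 9255, less than 2-fold apart. Reads from mitochondrial transcripts and from these nuclear copies cannot be told apart in the table. The reads left for all other rows fell by 0.07 on the log2 scale.

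The comparison was also read by stage. Of 2352 separated 4-cell-high genes, those more than 2-fold higher in that column than in the early 2-cell column, 138 (5.87%) lay above both controls and 288 (12.2%) below both, beside 11.3% and 10.5% over all genes. Of 2933 early 2-cell-high genes, 368 (12.5%) lay above both and 301 (10.3%) below both. Their medians over the control mean were -0.29 and -0.05, on either side of the -0.21 of all genes. With the column headed 4-cell-con in its place, the 4-cell-high genes had 6.18% above both and 11.9% below both, and the early 2-cell-high genes 12.7% and 10.3%. The difference between these sets was not tested.

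Of 33 counted 2-cell embryo genes, 4 were more than 2-fold higher (12.1%) and 7 lower (21.2%) than the control mean, beside 16.4% and 28.2% of all genes, with a median of -0.51 against -0.21 over all genes. Against each control, 2 lay above both (6.06%) and 4 below both (12.1%), beside 11.3% and 10.5% of all genes. The median was -0.65 against control A and -0.23 against control B, and 0.33 for control A over control B. Obox1 and Obox3, homeobox genes of the oocyte and 2-cell embryo, were at 325 and 296 FPKM against 140 and at 101 and 79.8 against 38.0. Zscan4a, annotated as a pseudogene of the Zscan4 cluster, was at 58.0 and 52.99 against 14.6. Zscan4c and Zscan4f were at 126 and 47.7 against 43.9 and at 137 and 79.3 against 75.6, below both controls by less than 2-fold from the lower one.

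Not every 2-cell gene was low. Zfp352 was at 67.2 and 63.0 FPKM in the controls and at 115 in the knockdown, and Obox6 was at 185 and 145 against 334, above both controls but within 2-fold of control A. Tdpoz3, a speckle-type POZ gene, was at 0.14 and 0.656 against 14.6. Duxf3, a transcription factor at the head of this programme, was at 0.589 FPKM in the control mean and at 0 in the knockdown. Zscan4, Obox and Tdpoz genes have near-identical copies, and how the authors' counting divided such reads was not given in the sources used here.

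Of 37 counted oocyte and maternal-effect genes, 4 were higher (10.8%) and 14 lower (37.8%) than the control mean, beside 16.4% and 28.2% of all genes. Of the 35 with separated reads, 9 lay below both controls (25.7%) and 2 above both (5.71%), beside 10.5% and 11.3% of all genes. Rfpl4, an oocyte RING finger gene, was at 742 and 734 FPKM against 213. Uchl1, a deubiquitinase abundant in oocytes, was at 297 and 517 against 144. Zar1l was at 52.8 and 36.5 against 7.12, and Sycp3, of the meiotic chromosome axis, was at 54.2 and 44.8 against 11.2. Others hardly moved: Oog3 was at 2281 and 2237 against 2164, and Omt2b at 2718 and 2634 against 2498. The zona pellucida genes Zp2 and Zp3 were at 36.5 and 37.6 against 42.8 and at 66.2 and 43.7 against 63.8. Dppa3, a maternal factor that protects DNA methylation, was at 2069 and 2048 against 1154, lower than both by less than 2-fold.

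Genes that SIRT1 protein acts on or is set by were counted because they bear on the perturbation. Of 15, 2 were higher (13.3%) and 5 lower (33.3%), beside 16.4% and 28.2% of all genes. The same 5 lay below both controls (33.3%), beside 10.5% of all genes. Foxo1, a forkhead factor deacetylated by SIRT1, was at 73.3 and 64.8 FPKM against 30.1. Nr1h2, the liver X receptor beta, was at 32.9 and 29.6 against 7.55. Xpa, of nucleotide excision repair, was at 13.9 and 9.13 against 0. Dnmt1, the maintenance DNA methyltransferase, was at 3.91 and 12.3 against 0.785, and Nr1h3 was at 7.98 and 1.24 against 0. Foxo3 lay between the controls at 34.9 and 48.8 against 39.0. Arntl, the clock factor BMAL1, was at 10.1 and 6.83 against 22.1.

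The acetylation machinery was counted in the same way. Of 14 class I and II deacetylases and corepressors, 0 were more than 2-fold beyond both controls. Over all genes, 11.3% lay above both and 10.5% below both. Against the mean, 0 of the 14 were higher and 1 lower (7.14%), beside 16.4% and 28.2% of all genes. The lower one was Mbd3, at 33.8 and 80.8 FPKM against 27.98. Hdac1 was at 31.8 and 17.5 against 23.4 and Hdac2 at 17.7 and 14.1 against 17.9. Of 13 acetyltransferases, acetyl readers and acetyl-CoA enzymes, 0 were higher and 1 lower (7.69%), both under the shares of all genes. The lower one was Hat1, which acetylates new histone H4, at 16.7 and 5.66 against 2.21. Brdt, a bromodomain reader, was at 304 and 228 against 354. Of 13 NAD genes, 1 was higher (7.69%) and 1 lower (7.69%), also under the shares of all genes. Tdo2 was higher at 2.65 FPKM against no control read, and Parp1 lower at 5.65 and 3.95 against 1.48. Nmnat1, the nuclear NAD+ synthase, was at 15.1 and 33.8 against 32.7.

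**Figure D5:**
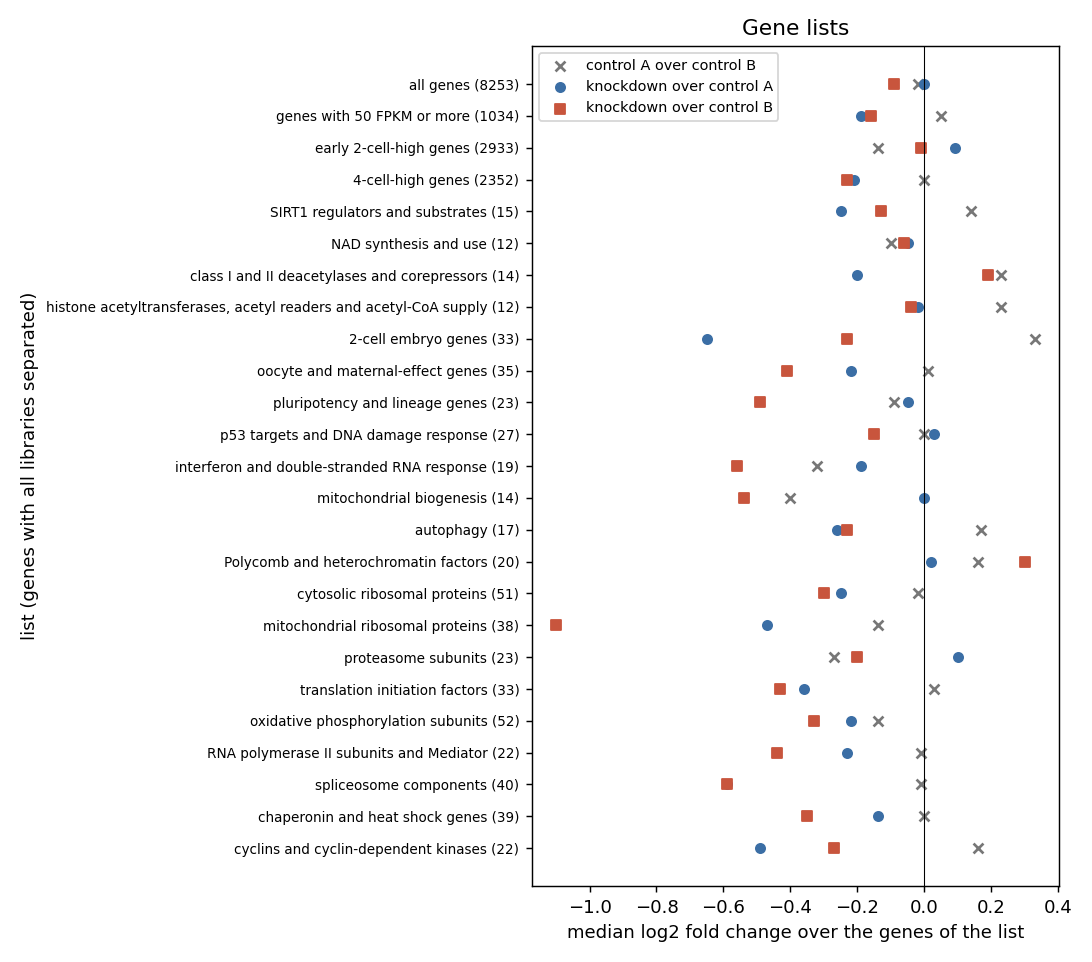
Median log2 fold change (x axis) over the genes of each list (y axis, number of genes in brackets) for the knockdown over control A (circles), over control B (squares) and control A over control B (crosses). The spliceosome list stands at -0.59 against either control, the mitochondrial ribosome at -0.47 and -1.1, and the deacetylases on either side of 0.

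Spliceosome and ribosome lists had medians below that of all genes. Spliceosome components had a median of -0.59 against either control, with the controls -0.01 apart, and of 40 separated genes 6 lay below both (15%) and 0 above. Srsf9, a splicing regulator, was at 15.9 and 14.7 FPKM against 3.07, and Snrpg, a core protein of the small nuclear ribonucleoproteins, was at 311 and 301 against 206. Over all genes, 10.5% lay below both controls and 11.3% above both. Mitochondrial ribosomal proteins had 10 of 38 below both (26.3%) and 5 above (13.2%). Mrpl46 was at 67.7 and 37.7 against 13.8. Cytosolic ribosomal proteins had medians of -0.25 and -0.3 against control A and control B. Of them, 5 of 51 lay below both (9.8%), near the 10.5% of all genes. Over the 1034 genes of 50 FPKM or more the same medians were -0.19 and -0.16, and no difference between these lists and other genes was tested.

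Genes that respond to DNA damage or foreign RNA were counted next. Of 28 counted p53 targets and damage response genes, 2 were higher (7.14%) and 7 lower (25%), beside 16.4% and 28.2% of all genes, and 3 lay below both controls (11.1%), near the 10.5% of all genes. Mdm2, a p53 target and its inhibitor, was at 26.5 and 40.9 FPKM against 71.4. Gadd45a was at 227 and 105 against 58.1. Of 20 interferon and double-stranded RNA response genes, 2 were higher (10%), Oas1c and Oas1b, and 8 lower (40%), with 4 of 19 below both controls (21.1%). Oas1b was at 3.78 FPKM against no control read. Bst2, an antiviral membrane protein, was at 19.2 and 22.1 against 0, and Ifitm3 was at 37.3 and 56.7 against 19.6. Of 23 pluripotency and lineage genes, 4 were higher (17.4%) and 8 lower (34.8%), with 6 below both controls (26.1%). Utf1 was at 16.9 and 4.70 against 0 and Gata2 at 0 and 2.14 against 16.5, while Klf4 stayed at 163 and 174 against 159.

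The largest fold changes came from rows with no read on one side. Of the 15 most positive named genes with 10 FPKM or more, 13 were listed at 0 in the control and 13 reached less than 50 FPKM in the knockdown. Beyond Zfp982 and Bola1, Cxcl13, a chemokine, reached 29.2 FPKM (232 reads), at least 56.9-fold over the floor, and Efemp1, a matrix protein, 15.1 FPKM (213 reads), at least 52.3-fold. The others were Mir3091, Sprr2e, Mrgprb13, Efhd1, Pramel27, Igkv4-78, Cort, Fabp6, Zfp978, Il34 and Mt4, with log2 fold changes of 3.83 to 5.60. The rows of Mir3091 and Mir7659 count reads over short miRNA genes and are not a measure of the mature miRNA.

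All 15 most negative ones were listed at 0 in the knockdown. Pabpn1l, an oocyte poly(A)-binding protein, was at 69.3 and 14.3 FPKM in the controls, so at least 115-fold lower than their mean and at least 39.3-fold lower than control B. Gja4, the connexin between oocyte and follicle cells, was at 19.2 and 38.8, at least 112-fold lower than the mean and at least 74.5-fold lower than control A, and Bckdhb, of branched-chain amino acid breakdown, was at 19.6 and 20.8, at least 83.9-fold lower. Fbxw9 was at 22.4 and 18.6, at least 160-fold lower. The others were Mir7659, AC155939.1, Fam174c, C1qtnf12, Mospd3, Calhm6, Cldn25, Bst2, Mrps28, Rnf25 and Tmem230. Of 2430 lower genes, 1318 were at 0 in the knockdown, and of 1411 higher ones 469 were at 0 in the control column. Of the 8253 separated genes, 1685 (20.4%) had no read in 1 control library and some in the other.

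Markers of other cells were also counted. Of 11 measured granulosa and cumulus markers 9 were at 0 in the control and 9 in the knockdown, and their summed FPKM was 0, 9.5 and 5.4 in control A, control B and the knockdown. Of the 4 counted ones, 2 were higher (50%) and 2 lower (50%) than the control mean, beside 16.4% and 28.2% of all genes. Against each control, 2 lay above both (50%) and 0 below both, beside 11.3% and 10.5% of all genes. Among the members of this list at 0 in both groups were Foxl2, Ptx3, Hsd3b1 and Cyp11a1. The blood markers summed to 27.4, 36.3 and 17.1, mostly from Hba-a1 at 20.4, 19.5 and 11.2. The sperm and testis markers summed to 46.1, 33.4 and 52.4, mostly from Odf2, with 2 of 4 markers above 0 in the knockdown. Ptprc, the common leukocyte antigen, was at 0 in both groups. The part of granulosa, cumulus, blood and sperm RNA in the results was not tested.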

How the data were processed

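The authors used Trim Galore for trimming, HISAT2 for alignment (build mm10) and featureCounts for counting, and deposited FPKM, 1 column per group, which is the unit used here. Columns of 2 libraries are sums and were divided by 2. The number of libraries and reads per library were recovered from FPKM times GENCODE M21 exon length for 15360 genes. Between 96.3 and 97.8% of values above 0 resolved into libraries. The recovery was tested on simulated data. Library totals ran from 3169677 to 10003481 reads. Genes with 1 FPKM or more per library in either group were compared by log2(FPKM + 1). With 1 knockdown library no test is given, and called means more than 2-fold. Reads were recovered from FPKM, but the knockdown had no replicate, so edgeR and DESeq2 were not used. A trial fit with limma over the separated libraries was looked at and left out. Genes at 0 in all other libraries drove that fit. Named genes were the 15 largest changes each way at 10 FPKM or more, beyond both controls where these could be separated, the largest and most abundant members of each list, the sirtuins and Trim21. Genes of 50 FPKM or more beyond both controls, Gm29216, Gm28437, Gm28438, Gm10925, Gm28661 and the stage genes were added after their values were seen. The members and gene lists were chosen with earlier results of these data known. Intervals and floors cover counting error only. Python 3.11.15, numpy 2.4.6, pandas 2.3.3 and scipy 1.17.1 were used.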

Additional observations from a re-analysis of the deposited data

How the results depend on the processing

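No paired analysis was possible because the columns carry no replicate numbers and the knockdown column shows 1 library. With 5 FPKM added before the log, 478 genes were higher and 782 lower, and the Sirt1 log2 fold change was -2.32; with a minimum of 5 FPKM the counts were 810 and 1128. With the control column not divided by 2 they were 819 and 5116, and Sirt1 was at -3.65. Against 1 control library at a time, 1546 to 1906 genes were higher and 1915 to 2316 lower, and Sirt1 was at -2.84 to -2.45. More than 2-fold from each control library, an alternative added after the data were seen, left 933 and 865. With 0.1 FPKM added the counts and Sirt1 moved by less than the limits used, likewise without a minimum.

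With the column headed late-2-cell-Sirt1, 2137 genes were higher, 3212 were lower and Sirt1 was at -0.53. Of 94 named genes past 2-fold, 44 stayed past 2-fold in the same direction and 30 turned. Those that turned from lower had log2 fold changes of 1.55 for Fam174c, 1.91 for Mrps28, 0.69 for Alppl2, 0.43 for Naxe, 1.34 for Folr1, 0.99 for Aprt, 0.78 for Eif3g, 0.61 for Rpl41, 0.66 for Rps15, 0.35 for Hat1, 0.53 for Mbd3, 0.067 for Nr1h3, 2.46 for Parp1, 2.34 for Srsf9, 0.23 for Polr2b, 1.12 for Psmc4 and 0.27 for Utf1. Those that turned from higher had -1.15 for Sirt2, -2.16 for Psme4, -2.14 for Oas1c, -2.54 for Tpd52, -0.073 for Rras2, -2.66 for Oog2, -2.60 for Il7, -0.98 for Ppp3r1, -2.20 for Arntl, -1.05 for Gata2, -0.13 for Mdm2 and -0.48 for Tdpoz3, while Hsp90b1 was at -1.16. As given above, all 84 levels above 0 listed for 4-cell embryos treated with FK866 equalled the column headed late-2-cell-Sirt1. These values may therefore describe another stage and treatment than Sirt1 knockdown, and the cause of the turns was not tested. Against 1 control library at a time, 83 to 85 of 89 named genes stayed past 2-fold. Centring on the median kept the sign of 21 of 27 list medians. edgeR and DESeq2 were not run, since the knockdown has no replicate. With 1 knockdown library, a gene missing by chance and a gene that fell cannot be told apart.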

Other observations

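Other lists held members that stood apart from both controls in either direction. The shares below are to be read against 16.4% higher and 28.2% lower over all genes. The endoplasmic reticulum chaperones Hspa5 and Hsp90b1 were at 4.75 and 3.75 FPKM against 15.7 and at 2.09 and 4.41 against 17.8, above both controls, while the heat shock genes Dnajb1 and Hspb1 were at 114 and 107 against 53.1 and at 123 and 107 against 56.2. Of 41 chaperonin and heat shock genes, 7 were higher (17.1%) and 13 lower (31.7%). Of 25 proteasome genes, 4 were higher (16%) and 5 lower (20%), with Psmc4 at 20.1 and 30.4 against 2.81. Oxidative phosphorylation subunits numbered 10 higher (18.5%) and 10 lower (18.5%) of 54. Of 22 genes of RNA polymerase II and Mediator, 1 was higher (4.55%) and 5 lower (22.7%); Polr2b, the second largest polymerase subunit, was at 23.4 and 15.0 against 1.36, and Polr2m at 3.48 and 5.55 against 42.3.

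Of 17 autophagy genes, 0 were higher and 5 lower (29.4%), with Atg5 at 78.1 and 57.0 FPKM against 24.99. Of 20 Polycomb and heterochromatin factors, 1 was higher (5%) and 3 lower (15%), with Ezh2 at 105 and 107 against 126. Translation initiation factors numbered 1 higher (2.86%) and 6 lower (17.1%) of 35, cyclins and their kinases 1 (4.55%) and 5 (22.7%) of 22, and mitochondrial biogenesis genes 2 (14.3%) and 2 (14.3%) of 14. H1f8, the oocyte linker histone, was at 481 FPKM in the control mean and at 159 in the knockdown, and its reads could not be separated by library. These differences have no replicate of the knockdown behind them.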
